A study of Rattus norvegicus with 6 samples.

Results

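The genes described here encode 10 proteins of focal adhesions, the actin cytoskeleton or the LIM-domain families. They are the focal adhesion proteins Tln1 (talin 1), Vcl (vinculin), Zyx (zyxin) and Lpp, the actin-binding protein Nexn (nexilin), and the LIM-domain proteins Fhl1, Fhl2, Csrp1, Pdlim5 and Pdlim7. Members were taken by gene symbol. All 10 were found among the 32623 genes of the table, each on 1 row, and all 10 passed the filter on low values. The cells were cardiomyocytes taken from ventricular muscle of Sprague-Dawley rat pups at postnatal day 1 to 3, prepared as a single isolate pooled from several animals. Cells of the control group received the small interfering RNA labelled siNC, and cells of the other group received siMETTL3, which targets the messenger RNA of the m6A methyltransferase Mettl3. Both groups of 3 libraries were kept with their RNA for 24 h and then given lipopolysaccharide (LPS, bacterial endotoxin) for 6 h. Every library is therefore LPS-treated, and the response to LPS itself was not measured. Since replicates share the isolate, p-values measure the spread between these libraries, which may be technical.

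Focal adhesions are clusters of integrin receptors that hold a cell to its matrix. Talin binds the integrin tail, vinculin reinforces the link from talin to actin, and proteins with LIM domains (zinc-binding modules that mediate protein contacts) gather on actin under tension. In heart muscle the same proteins occupy costameres and Z-discs, where the sarcomere meets the membrane. Several genes of the group are known targets of serum response factor (SRF), which binds the CArG box, and of the TEAD factors that work with YAP.

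Promoter sequences are shown to let the shared and unshared elements be compared. They are those of members that passed the main limma or the edgeR test given below, or held a CArG box. They are RefSeq windows of build GRCr8, 250 bases ending at an annotated gene start, read 5′ to 3′ on the strand of the gene. Capitals mark a CArG box or the TEAD core (CATTCC or its complement GGAATG). The first Fhl1 window is chrX:139638246-139638495 on the plus strand. The Fhl2 windows, on the minus strand, are chr9:52954541-52954790 (a) and chr9:52923327-52923576 (b). Those of Nexn (chr2:243878153-243878402, minus) and Pdlim7 (chr17:9129558-9129807, plus) follow.
Fhl1: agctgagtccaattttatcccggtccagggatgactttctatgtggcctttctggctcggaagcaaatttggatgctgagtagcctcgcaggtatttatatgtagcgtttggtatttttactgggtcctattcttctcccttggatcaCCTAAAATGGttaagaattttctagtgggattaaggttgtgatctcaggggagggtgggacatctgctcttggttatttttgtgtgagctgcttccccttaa
Fhl2 a: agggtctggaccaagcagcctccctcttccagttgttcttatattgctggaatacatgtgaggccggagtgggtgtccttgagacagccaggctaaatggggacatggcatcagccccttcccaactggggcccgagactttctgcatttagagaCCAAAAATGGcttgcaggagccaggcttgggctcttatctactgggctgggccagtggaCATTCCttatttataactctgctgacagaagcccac
Fhl2 b: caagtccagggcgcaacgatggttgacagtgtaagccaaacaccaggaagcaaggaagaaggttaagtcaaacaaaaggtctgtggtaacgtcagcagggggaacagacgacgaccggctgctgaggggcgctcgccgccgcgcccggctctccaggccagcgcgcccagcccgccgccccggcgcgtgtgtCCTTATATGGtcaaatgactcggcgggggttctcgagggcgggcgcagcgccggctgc
Nexn: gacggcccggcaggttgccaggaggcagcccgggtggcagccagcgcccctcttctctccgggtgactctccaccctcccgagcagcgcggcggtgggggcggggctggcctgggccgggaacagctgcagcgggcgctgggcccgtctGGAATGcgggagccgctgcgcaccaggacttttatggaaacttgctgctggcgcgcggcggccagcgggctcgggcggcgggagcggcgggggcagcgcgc
Pdlim7: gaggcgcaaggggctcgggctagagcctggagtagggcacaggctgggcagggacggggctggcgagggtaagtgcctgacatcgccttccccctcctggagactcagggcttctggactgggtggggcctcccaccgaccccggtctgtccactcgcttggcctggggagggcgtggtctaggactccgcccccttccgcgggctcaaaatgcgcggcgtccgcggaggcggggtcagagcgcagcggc

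RefSeq windows were found for 9 of the 10 genes, all but Lpp, and numbered 12. A CArG box stood in 3 of them, 1 of Fhl1 and both of Fhl2, against 1.5% of all 33469 windows of the same length. Only exact matches wholly inside a window were counted. The Vcl window opens with cttataagg, which would complete a CArG box if the base before it, outside the window, were C. In Fhl1 it lay 102 to 93 bases upstream of the start, and in Fhl2 95 to 86 (a) and 58 to 49 (b). The TEAD core, searched on both strands, was found in 4 member windows (Fhl2 a, Nexn, Vcl and 1 of Zyx) and in 12.1% of all windows. The AP-1 site TGANTCA was in 0 member windows and 6.34% of all. The SP1 core GGGCGG, likewise searched on both strands, was in 7 member windows, that of Pdlim7 among them, and in 30.5% of all windows. Those 7 windows were 60.8% to 76.4% G or C, against a median of 51.2% over all windows. Windows of like base composition were not compared. The second Fhl1 window held none of these motifs. Matches describe the letters in these windows and show no binding.

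The table carries 2 units for each library: FPKM (fragments scaled to transcript length and depth, so that levels can be compared between genes) and counts. Total counts were 71202469 to 76668751. Each member had at least 787 counts in every library, so counting error is small beside the spread between libraries. Mettl3 itself fell, with 18.2, 17.2 and 15.3 FPKM in siNC replicates 1, 2 and 3 and 10.3, 10.6 and 9.90 FPKM in the siMETTL3 replicates. The groups did not overlap (log2 fold change -0.67, SE 0.0741, limma adjusted p = 0.00661). Cardiomyocyte markers were abundant. Tnnt2, cardiac troponin T, stood at 3662 ± 221 and 4010 ± 360 FPKM (SD, n = 3) in siNC and siMETTL3.

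Of the 10 genes, Fhl1 and Pdlim7 fell in siMETTL3 cells and 0 rose. These calls are from limma on log2(FPKM + 1) at an adjusted p under 0.05 over all 13105 tested genes, where 10.9% of genes were called, 4.4% lower and 6.53% higher. By edgeR on the counts 3 were lower (Fhl1, Pdlim7 and Nexn) and 0 higher, where 7.28% of genes were called, 4.9% lower and 2.39% higher. The median log2 fold change of the 10 genes was -0.12 by limma, against 0.067 for all tested genes. By edgeR it was -0.20 against -0.0023. The siMETTL3 libraries lay wholly below the siNC libraries for 4 members (Fhl1, Fhl2, Pdlim7 and Nexn), as they did for 11.5% of tested genes. The groups did not overlap in either direction for 37.9% of tested genes, and the siMETTL3 libraries lay wholly above for 0 members and 26.4% of tested genes.

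**Figure D1:**
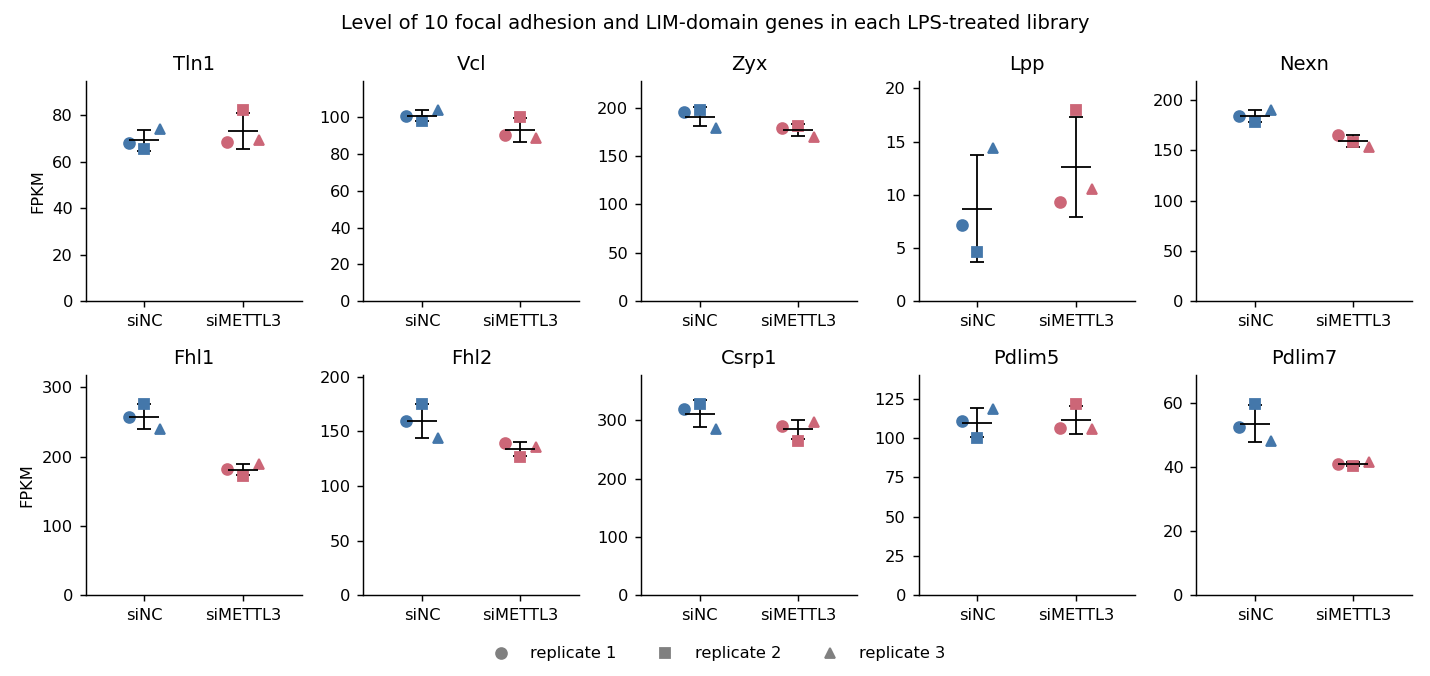
FPKM (vertical axis, from 0) of each gene in the 3 siNC and 3 siMETTL3 libraries. Points are libraries, with the replicate number as the symbol; horizontal bars are means and whiskers 1 SD. Fhl1, Fhl2, Pdlim7 and Nexn show no overlap between the groups, and Lpp shows the widest spread within them.

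Per length, Csrp1 had the highest level of the 10 genes in both groups and Lpp the lowest. In siNC the order was Csrp1 (311 FPKM), Fhl1 (258), Zyx (191), Nexn (184), Fhl2 (160), Pdlim5 (109.8), Vcl (101), Tln1 (69.1), Pdlim7 (53.7) and Lpp (8.70). Neighbours whose libraries overlapped there were Zyx with Nexn and Pdlim5 with Vcl. The order of means was the same in siMETTL3, where Fhl1 at 181 FPKM overlapped Zyx at 177 FPKM.

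Tln1 and Vcl, the pair that couples integrins to actin, did not pass. Tln1 measured 68.1, 65.2 and 73.9 FPKM in siNC replicates 1, 2 and 3 and 68.2, 82.2 and 69.3 FPKM in siMETTL3. The highest library was siMETTL3 replicate 2, and the groups overlapped. Its log2 fold change was 0.080 (95% interval -0.13 to 0.29, limma adjusted p = 0.558), and edgeR gave 0.0045. Vcl measured 101, 97.8 and 104 FPKM in siNC and 90.4, 100.2 and 88.4 FPKM in siMETTL3. Replicates 1 and 3 of siMETTL3 lay below all siNC libraries, and replicate 2 lay among them. The difference was -0.12 (95% interval -0.26 to 0.032, adjusted p = 0.247; edgeR -0.20, adjusted p = 0.0987). In counts Vcl had 43572, 41306 and 41811 in siNC and 37810, 42145 and 36209 in siMETTL3.

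Both genes have long transcripts, with effective lengths of 8.90 kb (Tln1) and 5.65 kb (Vcl) as the ratio of counts to FPKM gives them, and the fold change moved with length across the table. Its median was -0.034 for tested genes up to 1 kb and 0.17 for those over 5 kb. After each library's trend on length was removed, a setting chosen after seeing the data, Vcl was called lower (-0.20, adjusted p = 0.0231) and Tln1 was at -0.061 (adjusted p = 0.408). This setting called 2170 of the 13105 tested genes, 831 of them lower. The talin paralogue Tln2 had 8.49 ± 1.59 and 10.5 ± 1.71 FPKM (0.28, adjusted p = 0.239).

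Zyx and Lpp belong to the zyxin family, which recruits actin assembly factors to strained fibres. Zyx measured 195, 198 and 179 FPKM in siNC and 179, 181 and 169 FPKM in siMETTL3. The groups touched, since siNC replicate 3 lay between siMETTL3 replicates, and the difference of -0.11 (95% interval -0.25 to 0.034) did not pass (limma adjusted p = 0.259, edgeR 0.102). Lpp measured 7.12, 4.63 and 14.4 FPKM in siNC and 9.29, 18.0 and 10.5 FPKM in siMETTL3. The siNC libraries spanned from the lowest to the second highest value of all. Its difference of 0.56 had a 95% interval of -0.36 to 1.48 (adjusted p = 0.358), and its within-group SD on the log2 scale, 0.62, was at the 98.5th percentile of tested genes. Without replicate 2 of both groups the Lpp difference was -0.037. The related Trip6 (12.2 ± 1.55 and 12.7 ± 1.54 FPKM, adjusted p = 0.78) and Ajuba (19.8 ± 1.30 and 18.4 ± 0.709 FPKM, adjusted p = 0.339) did not pass. Limd1 rose by limma (10.9 ± 0.526 to 13.3 ± 0.727 FPKM, 0.27, adjusted p = 0.0448) and was not called by edgeR (0.0948).

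Nexn, an actin-binding protein of the Z-disc that is linked to cardiomyopathy, was lower in every siMETTL3 library. It measured 184, 178 and 190.2 FPKM in siNC and 166, 158 and 154 FPKM in siMETTL3. The counts were 33549, 31663 and 32283 against 29217, 28099 and 26526. No siMETTL3 library reached the lowest siNC library. The limma difference of -0.21 (SE 0.0546) gave an adjusted p of 0.0565. By edgeR Nexn fell (-0.29, adjusted p = 0.0273), and it also passed with limma after median-ratio scaling (-0.28, adjusted p = 0.0305). Its within-group SD was at the 11.7th percentile of tested genes.

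Fhl1, a LIM-only protein of the sarcomere and a mediator of the hypertrophic response to stretch, had the largest difference of the members that passed. It measured 258, 277 and 239 FPKM in siNC and 182, 173 and 189 FPKM in siMETTL3, or 70.1% of the control mean. In counts this was 53880, 56376 and 46484 against 36650, 35025 and 37283. The lowest siNC library stood above the highest siMETTL3 library. By limma Fhl1 differed by -0.51 on the log2 scale (SE 0.0704, 95% interval -0.67 to -0.34, adjusted p = 0.0118). The edgeR value was -0.59 (adjusted p = 0.0064). The gene (ENSRNOG00000000875) lies on the plus strand of chromosome X at 159112880 to 159172524 in the table, which lists 5 transcripts for it. Isoforms are summed in 1 value.

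Fhl2, the LIM-only relative best known as a heart-enriched partner of signalling and transcription factors, measured 160, 176 and 144 FPKM in siNC and 140, 127 and 136 FPKM in siMETTL3. The groups did not overlap, by a margin of 143.8 against 139.7 FPKM. The difference of -0.25 (95% interval -0.44 to -0.050) did not pass after adjustment (limma adjusted p = 0.0988, edgeR 0.0612). DESeq2 called it (adjusted p = 0.00667), as it did 2359 of 21272 genes, 1360 of them lower. Fhl3, the other tested relative, had 9.98 ± 0.806 and 10.4 ± 0.634 FPKM (0.051, adjusted p = 0.684). Whether the Fhl genes differed from one another in response was not tested.

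Csrp1, a LIM protein that binds alpha-actinin and zyxin, measured 320.4, 329 and 285 FPKM in siNC and 290.1, 265 and 298 FPKM in siMETTL3. The lowest siNC library, replicate 3, lay below 2 of the siMETTL3 libraries. The difference was -0.13 (95% interval -0.31 to 0.056, limma adjusted p = 0.299). Neither relative passed: Csrp2, a smooth muscle member, had 73.4 ± 4.93 and 69.4 ± 7.04 FPKM (adjusted p = 0.551). Csrp3, the muscle LIM protein, had 466 ± 60.4 and 434 ± 69.7 FPKM (adjusted p = 0.635).

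Pdlim7 (Enigma), a scaffold with a PDZ domain and LIM domains, fell. It measured 52.7, 60.0 and 48.3 FPKM in siNC and 41.2, 40.3 and 41.6 FPKM in siMETTL3, which is 76.4% of the control mean. The siMETTL3 libraries lay close together, and all of them stood below the lowest siNC library. The counts were 7038, 7802 and 5991 against 5305, 5227 and 5242. By limma Pdlim7 differed by -0.37 on the log2 scale (SE 0.0801, adjusted p = 0.0338), against -0.47 by edgeR (adjusted p = 0.0209). Pdlim5, a scaffold of the same domain plan that tethers protein kinases at the Z-disc, measured 111, 100.1 and 118 FPKM in siNC and 107, 122 and 106 FPKM in siMETTL3. The groups overlapped, with siMETTL3 replicate 2 the highest library and siNC replicate 2 the lowest. The difference was 0.023 (95% interval -0.18 to 0.22, adjusted p = 0.872), and edgeR gave -0.057.

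Other PDZ-LIM genes did not pass by limma. Pdlim1, which binds alpha-actinin, had 190.1, 192 and 171 FPKM in siNC and 153, 139.6 and 161 FPKM in siMETTL3. Its groups did not overlap (-0.29, limma adjusted p = 0.0548), and edgeR called it lower (-0.37, adjusted p = 0.0332). Pdlim2 (0.25, adjusted p = 0.191), Pdlim3 (-0.038, adjusted p = 0.76) and Pdlim4 (0.15, adjusted p = 0.389) were not called by either tool. Ldb3, the Z-disc protein cypher, had 65.3 ± 2.47 and 84.8 ± 27.0 FPKM (adjusted p = 0.287), with siMETTL3 replicate 3 at 116 FPKM and the 5 other libraries at 63.1 to 72.2 FPKM.

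**Figure D2:**
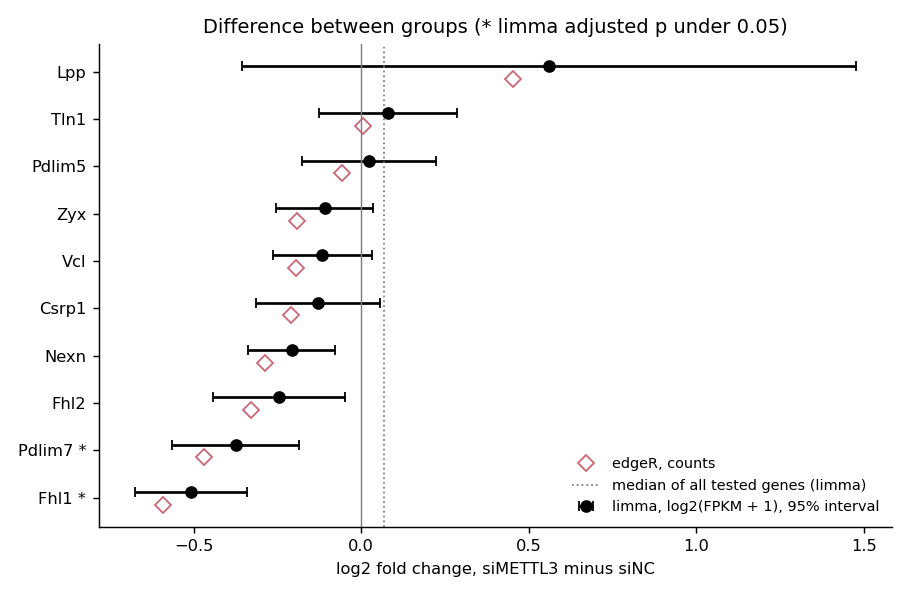
Log2 fold change, siMETTL3 minus siNC, of the 10 genes (vertical axis) by limma with its 95% interval and by edgeR. The dotted line is the limma median of all tested genes, 0.067. Fhl1 and Pdlim7 passed by limma, and Lpp has the widest interval.

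Leaving out 1 library ended the Fhl1 call in 2 of 6 fits, without siNC replicate 1 (limma adjusted p = 0.0591) and without siMETTL3 replicate 1 (0.0595). Pdlim7 stayed past the threshold only without siNC replicate 3 (0.0301). It was at 0.106 and 0.0648 without siNC replicates 1 and 2, at 0.102, 0.0876 and 0.081 without siMETTL3 replicates 1, 2 and 3, and at 0.0579 with no filter on low values. Both differences were below 0 in every one of these fits, and a fit with fewer libraries has less power by construction.

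Shifts within a group were computed for 1 library of each, siNC replicate 3 and siMETTL3 replicate 2. In siNC, replicate 1 lay between replicates 2 and 3 for every member, so replicate 3 was not the only one to depart. Pdlim7, for example, measured 52.7, 60.0 and 48.3 FPKM in siNC replicates 1, 2 and 3, and Pdlim5 111, 100.1 and 118 FPKM. In siNC replicate 3, Lpp was higher than the mean of replicates 1 and 2 by 1.18 on the log2 scale, Pdlim5 by 0.17, Tln1 by 0.15 and Vcl by 0.0665. The same genes were higher in siMETTL3 replicate 2 than in its fellow libraries, by 0.80, 0.20, 0.25 and 0.16 in that order. Fhl2 (-0.22 and -0.12), Csrp1 (-0.19 and -0.15), Fhl1 (-0.16 and -0.10) and Pdlim7 (-0.21 and -0.035) were lower in both. Zyx (-0.13 and 0.056) and Nexn (0.074 and -0.0098) had opposite signs.

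Across the table the shifts of these libraries varied with transcript length. The slope on log2 length of a library's deviation from each gene's mean was -0.022, -0.051 and 0.020 in siNC replicates 1, 2 and 3. In the siMETTL3 replicates it was -0.0015, 0.064 and -0.0094. The largest slope in size was thus that of replicate 2 in both groups, with opposite signs. For tested genes over 5 kb the median shift was 0.15 in siNC replicate 3 and 0.17 in siMETTL3 replicate 2. For genes up to 1 kb it was -0.13 and -0.17. Lpp, with an effective length of 2.28 kb, moved by far more than the median of genes of 2 to 3 kb (-0.027 and -0.0016). The part of this pattern in the group differences was not tested beyond the length correction, under which Fhl1 (-0.52, limma adjusted p = 0.00783) and Pdlim7 (-0.35, adjusted p = 0.0204) were called, with Nexn (-0.21, adjusted p = 0.0284) and Vcl. That setting also called more of the whole table, 2170 of 13105 tested genes (1339 higher and 831 lower) against 1432 in the main fit.

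**Figure D3:**
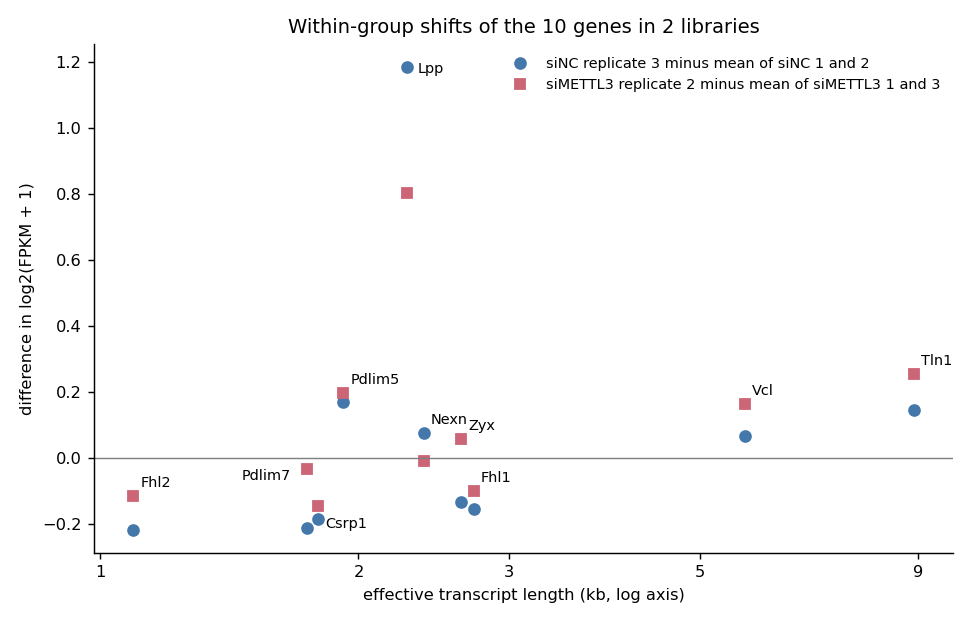
Difference in log2(FPKM + 1) between 1 library and the mean of the other 2 of its group (vertical axis) against effective transcript length in kb (log axis), for siNC replicate 3 (circles) and siMETTL3 replicate 2 (squares). Lpp, at 1.18 and 0.80, lies far above the other 9 genes, and Tln1 and Vcl are the longest.

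Related genes were counted in 6 lists chosen beside the 10 members. Among 16 tested integrin receptor genes 2 fell and 1 rose (edgeR 3 and 0). Itga8, an integrin alpha chain of mesenchymal cells, went from 8.78 ± 0.719 to 5.23 ± 0.271 FPKM (-0.65, limma adjusted p = 0.00722). The collagen receptor chain Itga11 (-0.43, adjusted p = 0.0207) also fell and the laminin receptor chain Itga6 (0.33, adjusted p = 0.0328) rose. The list median was 0.018.

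Of 35 tested adaptors and kinases of focal adhesions 3 fell and 2 rose (edgeR 5 and 0). Cav1, the main protein of caveolae, went from 39.7 ± 1.69 to 27.8 ± 0.0625 FPKM (-0.50, adjusted p = 0.00558). The vinculin-binding Sorbs3, vinexin (-0.34, adjusted p = 0.0189), and Lims2, a LIM-only partner of integrin-linked kinase (-0.30, adjusted p = 0.0252), fell as well. The tensin Tns2 (0.31, adjusted p = 0.0371) and the talin-binding Kank2 (0.25, adjusted p = 0.0412) rose. The list median was 0.087.

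Of 28 tested proteins that cross-link or bind actin at adhesions 5 fell and 1 rose (edgeR 8 and 0), with a median log2 fold change of -0.096. Actn1, the non-muscle alpha-actinin to which zyxin, Csrp1 and PDZ-LIM proteins bind, measured 142, 142 and 129 FPKM in siNC and 104, 111 and 107 FPKM in siMETTL3. Its groups did not overlap (-0.35, limma adjusted p = 0.0186). The tropomyosin Tpm2 (-0.48, adjusted p = 0.0212), caldesmon Cald1 (-0.31, adjusted p = 0.0238) and anillin Anln (-0.34, adjusted p = 0.0278) fell too. Ezr, ezrin, which ties actin to the membrane, rose (0.27, adjusted p = 0.0173).

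The 40 other tested LIM-domain genes had 4 falls and 2 rises (edgeR 5 and 0), and their median of 0.070 was close to that of all tested genes. Lmcd1, a LIM protein of cardiac muscle, measured 94.6, 92.8 and 89.1 FPKM in siNC and 68.4, 64.5 and 76.0 FPKM in siMETTL3, with no overlap (-0.40, adjusted p = 0.021). Lima1 (-0.44, adjusted p = 0.022), an actin bundler, Lmo4 (-0.32, adjusted p = 0.0267), a nuclear LIM-only adaptor, and Lims2 fell. Limk1 (0.38, adjusted p = 0.0347), the kinase of cofilin, and Limd1 rose.

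Among 15 tested regulators of SRF and YAP signalling 1 fell and 4 rose, but edgeR called 1 lower and 0 higher. Vgll3, a TEAD cofactor, went from 17.5 ± 0.993 to 10.7 ± 1.13 FPKM (-0.67, adjusted p = 0.00859). Srf itself measured 22.2, 21.5 and 21.1 FPKM in siNC and 25.3, 27.6 and 25.4 FPKM in siMETTL3. It rose by limma (0.26, adjusted p = 0.0337), with an edgeR adjusted p of 0.0788. Vgll4 (0.34, adjusted p = 0.0177), Tead2 (0.27, adjusted p = 0.0325) and Rhob (0.30, adjusted p = 0.0325) rose by limma and were not called by edgeR. Of 16 costamere and intercalated disc partners Xirp1, an actin-binding protein of the disc, fell (-0.44, adjusted p = 0.0115) and the junction protein Jup rose (0.38, adjusted p = 0.0446), where edgeR called 2 lower and 0 higher.

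On the edgeR scale, where the median of all tested genes was -0.0023, the list medians were -0.061 for integrins, 0.013 for adaptors and kinases, -0.18 for actin-linking proteins, -0.0049 for LIM-domain genes, 0.082 for SRF and YAP regulators and -0.044 for costamere partners.

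Over these lists 26 different genes passed by limma. With each library left out in turn, 3 of them (Itga8, Cav1 and Vgll3) passed in all 6 fits and 8 passed in 0. In the table's own annotation, 161 tested genes carry the KEGG term for focal adhesion, among them Vcl, Zyx and Tln1, and 24 fell and 10 rose (edgeR 33 and 3) with a median of 0.030. Of 138 tested genes with the Gene Ontology term for the focal adhesion, which 6 members carry, 14 fell and 9 rose (edgeR 17 and 3) with a median of 0.081.

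**Figure D4:**
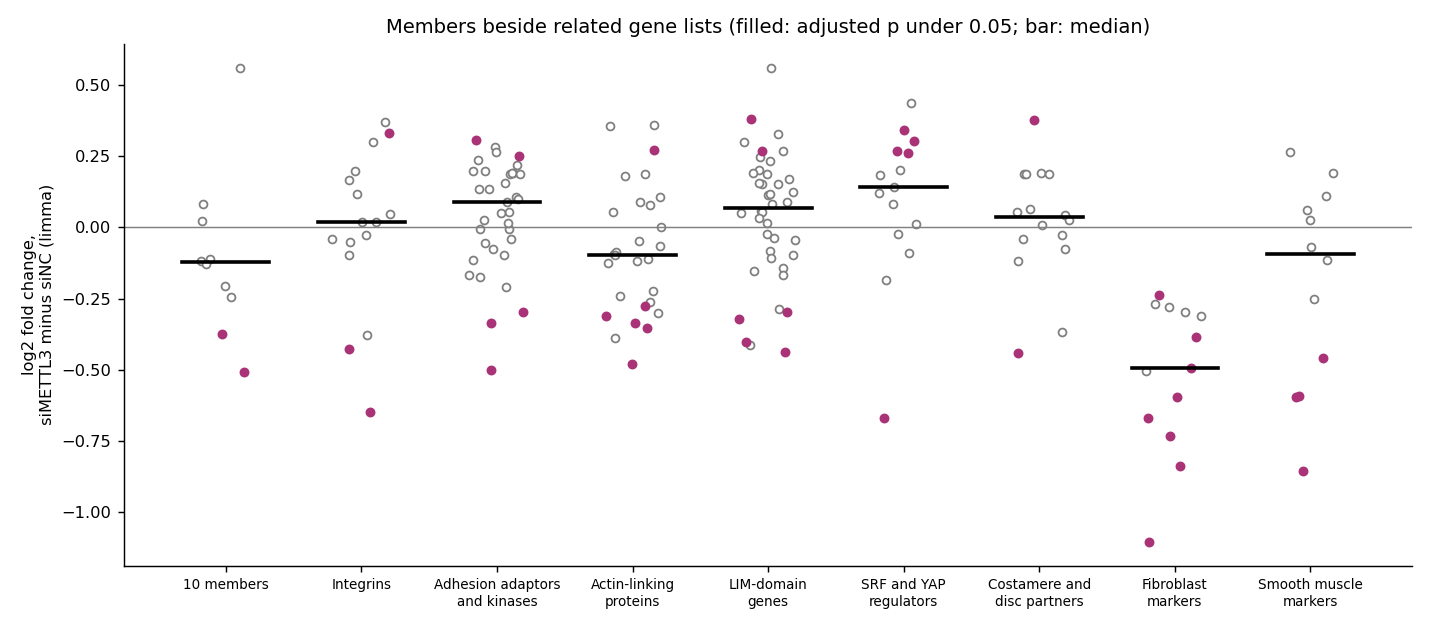
Log2 fold change by limma (vertical axis) of the 10 genes, of 6 related lists and of fibroblast and smooth muscle markers. Each circle is a gene, filled where the adjusted p was under 0.05, and bars are medians. The members' median is -0.12 and that of the fibroblast markers -0.49.

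Markers of other cells moved beside the members that fell. Of 13 tested fibroblast markers 8 fell and 0 rose (edgeR 10 and 0). Over all tested genes 4.4% fell and 6.53% rose (edgeR 4.9% and 2.39%). The summed level of the fibroblast markers was 2474 to 2582 FPKM in siNC and 1675 to 1789 FPKM in siMETTL3. The collagen chain Col1a1 went from 1196 ± 17.6 to 752 ± 30.2 FPKM and the matrix glycoprotein Fn1 from 539 ± 33.7 to 413 ± 37.9 FPKM. Of 12 smooth muscle and pericyte markers 4 fell and 0 rose (edgeR 5 and 0). However, 5 of the 12 had a difference above 0 and the list median was -0.093. Their summed level was 4716 to 5324 FPKM in siNC and 3533 to 3803 FPKM in siMETTL3, most of it from Acta2 (2386 ± 115 and 1577 ± 59.1 FPKM) and Tagln (1273 ± 127 and 844 ± 90.0 FPKM), which muscle and activated fibroblasts share.

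Of 8 tested macrophage markers 6 fell and 0 rose (edgeR 7 and 0), with sums of 82.1 to 101 and 42.6 to 56.7 FPKM. Lyz2 was the highest at 44.4 ± 3.49 and 22.8 ± 4.47 FPKM. Of 12 tested cardiomyocyte markers 0 fell and 0 rose by limma (edgeR called 1 lower, Myh7), with sums of 22037 to 25390 and 19160 to 22331 FPKM. The siMETTL3 libraries lay wholly below siNC for 4 of the 12 and wholly above for 0, against 11.5% and 26.4% of tested genes. The highest marker and largest part of the sum, Nppa, had 11628 ± 1249 and 9005 ± 1038 FPKM. Its groups did not overlap (-0.37, limma adjusted p = 0.181, edgeR 0.0565). Endothelial, mesothelial and Schwann markers were low, with sums of at most 72.6, 43.1 and 11.6 FPKM. Most of the endothelial sum came from Eng, at 45.3 ± 3.14 and 39.4 ± 2.94 FPKM (-0.20, limma adjusted p = 0.13). Of 7 tested endothelial markers 2 rose (Cdh5, 0.51, adjusted p = 0.0185, and Tek, 0.36, adjusted p = 0.0333) and 1, Egfl7, fell (-0.45, adjusted p = 0.0423). Of 7 tested mesothelial markers Lrrn4 rose (0.87, adjusted p = 0.00697) and Msln fell (-0.88, adjusted p = 0.00899), both in all 6 fits with 1 library left out. Lrrn4 was low, at 2.32 ± 0.291 and 5.09 ± 0.559 FPKM. Msln, at 1.70 ± 0.219 and 0.470 ± 0.109 FPKM, lay near the filter of 1 FPKM. At such levels the added 1 FPKM shrinks the limma difference, and edgeR gave 1.05 for Lrrn4 and -1.93 for Msln. No marker was at 0 in all libraries, and Cldn5, Upk3b, Bnc1 and Sox10 had a count of 0 in at least 1. With 1 library left out, the fibroblast markers that fell numbered 4 or 5. Without siNC replicate 1 or siMETTL3 replicate 1, only 1 smooth muscle and 2 macrophage markers fell. In the other 4 fits they numbered 2 to 4 and 4 to 6. The endothelial markers that rose numbered 1 without siNC replicate 3 or siMETTL3 replicate 3 and 0 in the other fits, and 0 fell in any of the 6.

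In these bulk cultures fewer cells of a type and less RNA per cell cannot be told apart. The part of the fibroblast, smooth muscle and macrophage markers in the values of Fhl1, Pdlim7 and Nexn was not tested.

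Whether more of all genes were called higher or lower depended on the scaling and on the libraries. By limma on FPKM as deposited 856 of 1432 called genes were higher and 576 lower. After median-ratio scaling 365 were higher and 778 lower, and by edgeR 395 and 810. On FPKM as deposited, more genes were lower than higher in 5 of the 6 fits with 1 library left out, from 83 higher and 123 lower without siMETTL3 replicate 1 to 224 and 326 without siMETTL3 replicate 3. The exception was the fit without siNC replicate 3 (471 and 390). The Fhl1 and Pdlim7 differences were larger in size under median-ratio scaling, at -0.58 and -0.44. This is not particular to them, since the scaling lowered differences across the table. The median of all tested genes went from 0.067 to 0.0054, and Csrp1 from -0.13 to -0.20.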

How the data were processed

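Messenger RNA of 6 libraries was analysed from 1 table. Per the file headers, the authors deposited FPKM and counts per gene and library; a count of 0 carries 0.0001 FPKM. The submitters' processing notes name Bowtie 0.12.2 and mm8, a mouse build, and give neither a role. The rat build, quantifier and annotation are not given in the sources used here, so coordinates are as the table has them. Counts and FPKM were proportional (98.69% of values within 1% of their gene's median ratio, over the 14527 genes whose lowest library had 20 or more counts), so the deposited counts may derive from the same estimate and may not be raw reads.

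The 13105 genes whose mean FPKM reached 1 were compared (siMETTL3 minus siNC) with limma 3.58.1 on log2(FPKM + 1), trend, 2-sided, in R 4.3.3. Benjamini-Hochberg adjustment ran over all tested genes at 0.05. edgeR 4.0.16 (quasi-likelihood, TMM) on the counts stands beside it, and DESeq2 1.42.0 is an alternative. The limma and edgeR fits were also run on simulated counts, with the same dispersion for every gene and no trend on length. That setting differs from these libraries, and its outcome is not used here. Replicates differed by more than sampling noise (chi-square per degree of freedom 22.1 to 63.1). An exact test of 3 against 3 cannot go below p = 0.1.

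Genes named by rule were all 10 members, Mettl3, tested paralogues, up to 4 passing genes per direction of each list and the highest markers. Myh7, the endothelial and mesothelial markers that passed, the markers at a count of 0 and the list genes shown library by library were picked after their values were seen. Members and lists were chosen with earlier results of these data known. Promoters are from RefSeq (GRCr8), matched by symbol.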

Additional observations from a re-analysis of the deposited data

How the results depend on the processing

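The number of genes called over the table was 1432, and 2 members were called. With no low-value filter these were 903 and 1, with DESeq2 2359 and 4, and with the length correction, chosen after seeing the data, 2170 and 4. With 1 library left out they ranged from 206 to 861 genes and from 0 to 2 members, and without replicate 2 of both groups they were 192 and 0. With the replicate number as a block they were 6 and 0 by limma and 61 and 0 by edgeR. Same-numbered libraries did not deviate together (correlations of 0.035, -0.25 and -0.12 for replicates 1, 2 and 3). The highest correlation was 0.27, between siNC replicate 3 and siMETTL3 replicate 2. These deviations are from means of only 3 libraries, so the check cannot exclude a pairing by number. Fewer libraries or residual degrees of freedom lower the power by construction. The other settings kept both counts within 1.5 times. The sign of 3 members that did not pass changed. Pdlim5 (0.023) was -0.057 by edgeR, -0.049 by edgeR with median-ratio size factors, -0.053 with no low-count filter, -0.048 by DESeq2 and by median-ratio scaling, -0.056 by edgeR with the block, -0.11 without replicate 2 of both groups, and -0.042 to 0.079 with 1 library left out. Tln1 (0.080) was -0.061 with the length correction, -0.044 without replicate 2 of both groups and -0.0047 to 0.13 with 1 library left out. Lpp (0.56) was -0.037 without replicate 2 of both groups. The causes were not tested. The remaining 7 members kept a difference below 0 in all settings. Every member had at least 787 counts in each library, so counting error is small; the effect of depth on the calls was not tested.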
